A study of Mus musculus with 4 samples.

Results

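The genes described here build ribosomes or transcribe ribosomal RNA. They were taken from the deposited count tables by symbol, with a pattern that matches the Nop, Nol, Noc, Rrp and Utp families, the RNA polymerase I subunits Polr1a to Polr1e, and named factors such as Ubtf, Rrn3, Fbl, Dkc1, Bop1, Pes1, Imp3 and Imp4. The pattern matched 65 of 16613 symbols. It used no measured value, but it was chosen with earlier results of these data known. Of these, 63 belong to genes with a role in ribosome biogenesis. The other two, Nol3 and Nol4l, share only the first letters of the name: Nol3 encodes a repressor of apoptosis, and no role was assigned to Nol4l. Both were near the detection limit, with 0 to 2.97 estimated reads per library for Nol3 and 8 to 22 for Nol4l. One member, Nol3, fell below the filter on low counts, so 64 were tested.

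The libraries came from mice of the C57BL/6 strain whose bone marrow carried N-myc-induced B-ALL, a B-cell acute lymphoblastic leukaemia model. B220+ bone marrow cells, either Anp32b+/+ (wild type, 2 libraries) or Anp32b-/- (knockout, 2 libraries), had been transduced with N-myc and given to recipients, and RNA was taken from GFP+ bone marrow cells. Both genotypes therefore carry the N-myc driver, and untransduced cells were not analysed here. The labels give neither the promoter of the vector, nor the age of the animals, nor whether cells of several recipients were pooled, and do not say that the 2 libraries of a genotype came from separate animals. The p-values thus measure only the spread between these libraries, which may be technical.

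Ribosome production starts in the nucleolus, where RNA polymerase I copies the ribosomal DNA into a long precursor RNA. Small nucleolar ribonucleoproteins (snoRNPs) modify that precursor, the small subunit processome folds and cuts its first part into 18S rRNA, and a separate set of assembly factors matures the large subunit RNAs. Many of these genes are known targets of MYC family factors, which is why the programme is studied in MYC-driven lymphoid tumours.

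In the knockout libraries, 17 of the 64 tested members were called higher than in wild type and none was called lower (edgeR quasi-likelihood test, Benjamini-Hochberg adjusted p under 0.05 over all genes tested). Over all 12123 genes tested, 10.9% were called higher, 12.6% lower and 23.6% either way, against 26.6% of the members higher. DESeq2 and limma-voom also called 0 members lower. The rises were small: the 17 called members were 11.6% (Wdr75) to 26.7% (Rrp1b) above wild type. The median log2 fold change of the members was 0.11, beside 0.0021 over all genes tested, and 55 of the 64 lay above 0. In 45 members both knockout libraries exceeded both wild-type libraries, and in 4 both lay below them, where 30.0% and 30.5% of all tested genes showed these patterns. With DESeq2 11 members were called higher (17.2%, against 5.48% of all genes), and with upper-quartile normalization 10 (15.6% against 8.57%). With no filter on low counts 3 were, Rrp1b, Ppan and Bop1 (4.62% against 3.3%). The count was 4 without knockout replicate 1 (6.25% against 4.71%) and 1 without knockout replicate 2 (1.56% against 2.97%), so in these fits the members' share was near or below that of all genes. Rrp1b alone kept its call in all 13 alternatives. With 1 knockout library left out, the estimate of spread rests on the more variable wild-type pair. With 1 wild-type library left out, it rests on the less variable knockout pair. Whether this bears on the counts of calls was not tested.

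**Figure D1:**
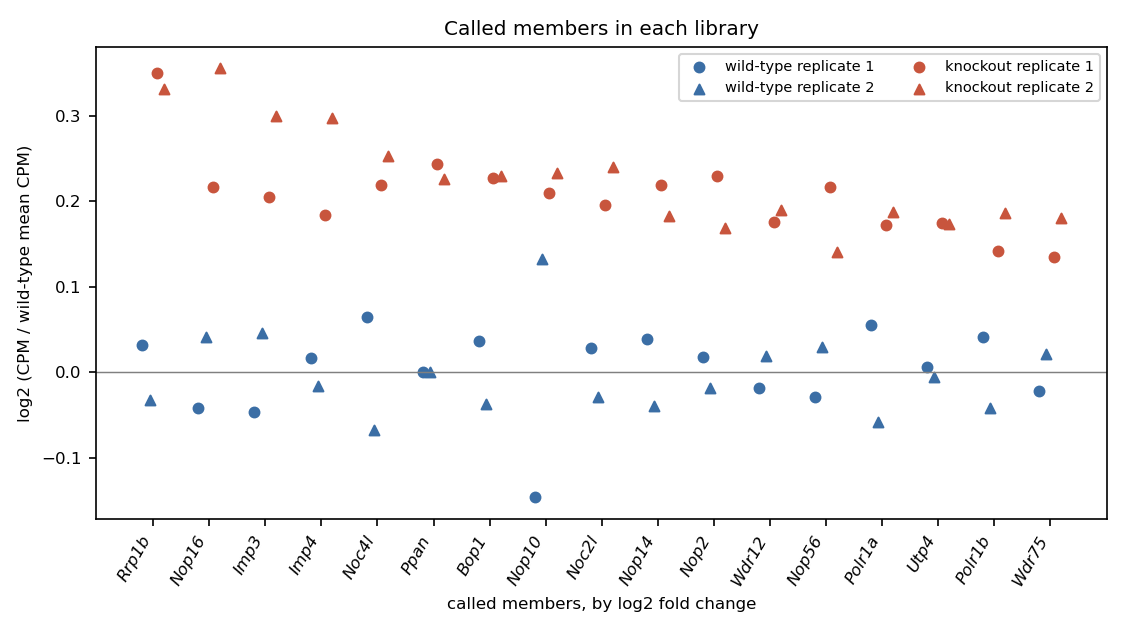
The 17 called members (horizontal axis, in order of log2 fold change) in each of the 4 libraries, as log2 of the scaled level (CPM, read counts scaled to a common library size) over the wild-type mean. Blue marks wild type and red knockout, circles replicate 1 and triangles replicate 2. For each gene both red points lie above both blue points, and the wild-type points of Nop10 lie farthest apart.

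Total member expression followed the same order. The members together took 10324 and 10444 CPM in the wild-type libraries and 11187 and 11243 CPM in the knockout libraries, or 1.04% and 1.05% against 1.11% and 1.11% of all reads. Large subunit assembly factors summed to 3256 and 3265 CPM in wild type and 3579 and 3612 CPM in knockout. Small subunit factors summed to 2776 and 2802 against 2977 and 2975 CPM. In bulk RNA of this kind, fewer cells expressing a gene and less RNA per cell cannot be told apart.

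The labelled cell type was checked first. Cd79a, which encodes a signalling chain of the B-cell receptor, was at 1871 to 1929 CPM in all 4 libraries, and none of 8 B lineage markers was at 0. Of these 8, 4 were called lower in knockout and none higher (list median -0.20): Ebf1 (-0.52), Igll1 (-0.37), Vpreb1 (-0.37) and Blnk (-0.28). Anp32b was at 774 and 853 CPM in wild type and at 74.4 and 70.6 CPM in knockout. The libraries held 19581575 to 19758671 estimated reads, so 3 reads, the limit that a count of 0 allows, equal 0.152 to 0.153 CPM (counting error only). Neutrophil markers were lower in knockout (16 of 17 called, summed level 658 and 669 CPM in wild type against 131 and 130 CPM, none at 0), as were monocyte markers (3 of 6 tested called, 73.0 to 74.9 against 20.96 to 21.97 CPM) and all 4 Y-linked genes tested (156 and 173 against 42.5 and 41.7 CPM). Whether these differences bear on the members' values was not tested. Of 10 proliferation genes such as Mki67 and Top2a, none was called in either direction (summed level 4764 to 4784 CPM in wild type, 4615 to 4621 CPM in knockout).

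The 6-letter E-box CACGTG is the sequence best known for binding MYC and MAX. Promoters are shown for 4 of the 13 members that hold it. Of the called members whose promoter could be matched, Imp4, Nop2 and Utp4 hold it, and all 3 are shown. Of the 10 holders that were not called only Rrn3, the initiation factor of RNA polymerase I, is shown, with 2 copies. The choice thus does not reflect how often called members hold the E-box. Each line runs 5′ to 3′ on the gene's strand, from 250 bases before to 50 after the start site (RefSeq, GRCm38.p6), with the E-box in capitals. The windows are chr1:34439579-34439878 for Imp4, chr6:125131633-125131932 for Nop2, chr8:106893390-106893689 for Utp4 and chr16:13780449-13780748 for Rrn3, all on the plus strand.
Imp4: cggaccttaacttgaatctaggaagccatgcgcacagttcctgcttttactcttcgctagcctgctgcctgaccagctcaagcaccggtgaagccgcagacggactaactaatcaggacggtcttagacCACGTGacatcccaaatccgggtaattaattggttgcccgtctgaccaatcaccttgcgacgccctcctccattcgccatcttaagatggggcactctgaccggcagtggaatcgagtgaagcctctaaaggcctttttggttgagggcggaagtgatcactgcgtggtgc
Nop2: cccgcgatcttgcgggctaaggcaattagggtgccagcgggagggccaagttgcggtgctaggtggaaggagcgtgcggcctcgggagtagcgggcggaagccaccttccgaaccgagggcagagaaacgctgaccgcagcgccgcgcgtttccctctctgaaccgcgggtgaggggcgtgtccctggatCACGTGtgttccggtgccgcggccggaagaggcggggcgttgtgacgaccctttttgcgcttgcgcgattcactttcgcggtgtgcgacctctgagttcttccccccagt
Utp4: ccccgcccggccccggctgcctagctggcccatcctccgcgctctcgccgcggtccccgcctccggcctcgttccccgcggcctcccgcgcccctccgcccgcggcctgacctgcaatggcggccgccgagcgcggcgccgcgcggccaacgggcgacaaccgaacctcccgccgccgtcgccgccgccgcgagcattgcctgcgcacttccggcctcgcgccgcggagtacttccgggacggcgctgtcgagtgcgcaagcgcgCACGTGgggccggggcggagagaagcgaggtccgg
Rrn3: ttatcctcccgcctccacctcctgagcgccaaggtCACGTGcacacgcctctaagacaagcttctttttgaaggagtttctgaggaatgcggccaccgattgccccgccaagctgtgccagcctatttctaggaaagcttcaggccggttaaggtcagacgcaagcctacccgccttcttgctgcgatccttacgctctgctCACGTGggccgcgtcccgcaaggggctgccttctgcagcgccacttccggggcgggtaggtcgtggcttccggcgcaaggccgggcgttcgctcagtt

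The E-box of Imp4 begins 121 bases before the start site and that of Nop2 60 bases before it, whereas that of Utp4 begins 15 bases after it. In the Rrn3 promoter the copies begin 215 and 48 bases before the start. The reference table held a promoter for 54 of the 65 members. CACGTG, which reads the same on both strands, was in the promoter of 13 of these 54 genes (24.1%), in 11.8% of 9799 tested genes with a promoter and in 8.1% of all 27025 genes of the table. By called state it was in 3 of 16 called members (18.8%) and in 10 of 38 others (26.3%). A pair of ETS-type cores was searched on both strands as well. CCGGAAG was in 19 of 54 members (35.2%) against 20.6% of tested genes, and GAGGAAG, the PU.1-type core, in 12 of 54 (22.2%) against 15.9%. These share the letters GGAAG but cannot both match at one position. The called members held CCGGAAG in 4 of 16 cases and GAGGAAG in 3 of 16. A match of letters is not a bound site.

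RNA polymerase I has its own catalytic subunits and shares others with RNA polymerase III. Polr1a, which encodes the largest catalytic subunit, was at 136 and 125 CPM in wild type and at 147 and 149 CPM in knockout. It was 13.3% higher (log2 fold change 0.18, SE 0.06, adjusted p = 0.0301). Polr1b, the gene of the second-largest subunit, stood at 113 and 107 CPM against 121 and 125 CPM (0.16, SE 0.05, adjusted p = 0.0431). Both knockout libraries were above both wild-type libraries for each gene. Their calls were lost with DESeq2, with upper-quartile normalization, with library totals only, with no filter and without wild-type replicate 2 (adjusted p = 0.0771 and 0.0956). Neither was called without a knockout library, and the call of Polr1b was also lost with the filter of 10 CPM in 2 libraries. The read ratio of Polr1a to Polr1b was 1.198 and 1.173 in wild type and 1.21 and 1.187 in knockout, so the values overlapped.

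Polr1c and Polr1d encode the pair of subunits that RNA polymerases I and III have in common. Polr1c was at 44.1 and 47.0 CPM in wild type and 52.3 and 50.8 CPM in knockout (0.18, SE 0.07, adjusted p = 0.0624), separated but not called, although leaving out wild-type replicate 2 gave a call (adjusted p = 0.0275). Polr1d, the most abundant of the 5 subunit genes, was at 194 and 219 against 203 and 211 CPM (0.0030, 95% interval -0.13 to 0.13, adjusted p = 0.978), with the knockout libraries inside the wild-type range. Polr1e, which encodes a subunit of the initiation-competent enzyme, was at 38.1 and 38.9 against 39.5 and 40.0 CPM (0.05, SE 0.07). In all, 2 of the 5 subunit genes were called higher (40%, against 10.9% of all genes tested), with a median of 0.16. Per kilobase of transcript, Polr1d was highest in every library, at 162 to 183 CPM per kb. Polr1c followed at 33.6 to 39.8, Polr1b at 26.7 to 31.3, Polr1a at 13.6 to 16.1 and Polr1e at 12.7 to 13.4. The ranges of neighbours in this order did not overlap.

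Of the 3 members that load or tune RNA polymerase I, none was called. Mybbp1a, a nucleolar protein that interacts with the polymerase I machinery, was the most abundant of all members by reads, at 854 and 807 CPM in wild type and 913 and 923 CPM in knockout. Its values did not overlap, and it lay just outside the threshold (0.14, SE 0.05, adjusted p = 0.0583). It was called higher with DESeq2 (adjusted p = 0.0438) and without wild-type replicate 1 (adjusted p = 0.00164). Ubtf, the architectural factor that coats active ribosomal DNA, was at 343 and 337 CPM against 351 and 342 CPM (0.03, 95% interval -0.08 to 0.13), which overlap. Rrn3, which carries the polymerase to the promoter, was at 84.2 and 92.3 against 87.1 and 89.0 CPM (-0.0035, 95% interval -0.13 to 0.12). Its knockout libraries lay between the wild-type ones, and its sign changed with the setting.

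**Figure D2:**
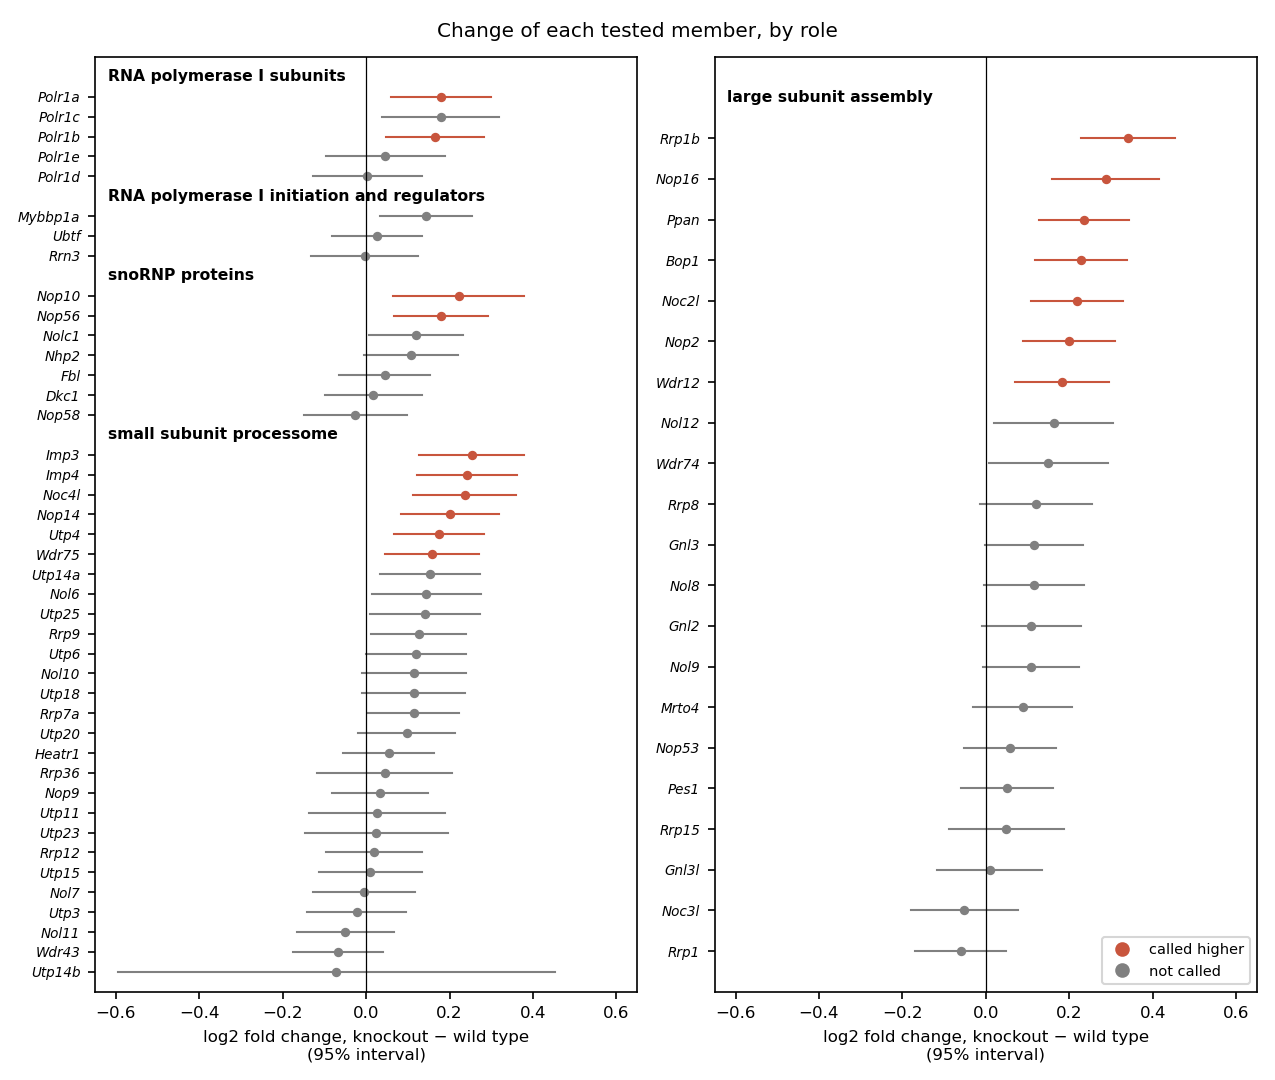
Log2 fold change of each of the 63 tested members with an assigned role, with its 95% interval, in groups by role and ordered by size. Red marks the 17 genes called higher and grey those not called. The called genes lie between 0.16 and 0.34, and no called gene lies below 0. Nol4l (0.95, SE 0.41, 8 to 22 reads per library) is not drawn.

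The snoRNP proteins guide chemical modification of ribosomal RNA: box C/D particles, with fibrillarin (Fbl), Nop56 and Nop58, add methyl groups, and box H/ACA particles, with dyskerin (Dkc1), Nhp2 and Nop10, convert uridine to pseudouridine. Nop56 rose from 575 and 599 to 682 and 647 CPM, or by 13.3% (log2 fold change 0.18, SE 0.05, adjusted p = 0.0233). Its adjusted p was 0.351 when knockout replicate 1 was left out and 0.176 when replicate 2 was, and it was also not called with upper-quartile normalization (0.0562) or no filter (0.0910). Nop10 rose from 135 and 164 to 173 and 175 CPM (0.22, SE 0.07, adjusted p = 0.0412), and the gap between its wild-type libraries was the widest among the called members. Without wild-type replicate 1 its log2 fold change was 0.089 (adjusted p = 0.172), and without wild-type replicate 2 it was 0.36. Nop10 was called in 5 of 13 alternatives: DESeq2, upper-quartile normalization, library totals only, no filter, the 10 CPM filter and leaving out either knockout library also ended the call. The other five members of this group were not called. Fbl was at 500 and 518 CPM in wild type and 523 and 527 in knockout (0.04, SE 0.05), and with the GC trend removed its sign turned. Nop58 was at 312 and 346 against 325 and 322 CPM (-0.03, 95% interval -0.15 to 0.10). Dkc1 was at 218 and 235 against 227 and 231 CPM (0.02, 95% interval -0.10 to 0.13). Nhp2 (0.11) and Nolc1 (0.12), a chaperone of both particle classes, had both knockout libraries above wild type without passing the test.

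Ratios between genes of one particle were taken within each library. The read ratio of Nop56 to Nop58, which is free of any scaling between libraries, was 1.84 and 1.73 in wild type and 2.10 and 2.01 in knockout. That of Nop10 to Dkc1 was 0.620 and 0.696 in wild type and 0.760 and 0.759 in knockout. Both ratios were higher in both knockout libraries. These ratios, and those given for other partners, were chosen after the values were seen, were not corrected for GC content and were not tested. An exact permutation test of 2 libraries against 2 cannot give a p below 0.333. Per kilobase of transcript, Fbl was the highest of all members, at 418 to 441 CPM per kb. Nop56 followed at 306 to 364, Nhp2 at 236 to 265, Nop58 at 182 to 202, Nolc1 at 159 to 180, Nop10 at 122 to 158 and Dkc1 at 77.6 to 84.0. The library ranges of neighbours in this order did not overlap.

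**Figure D3:**
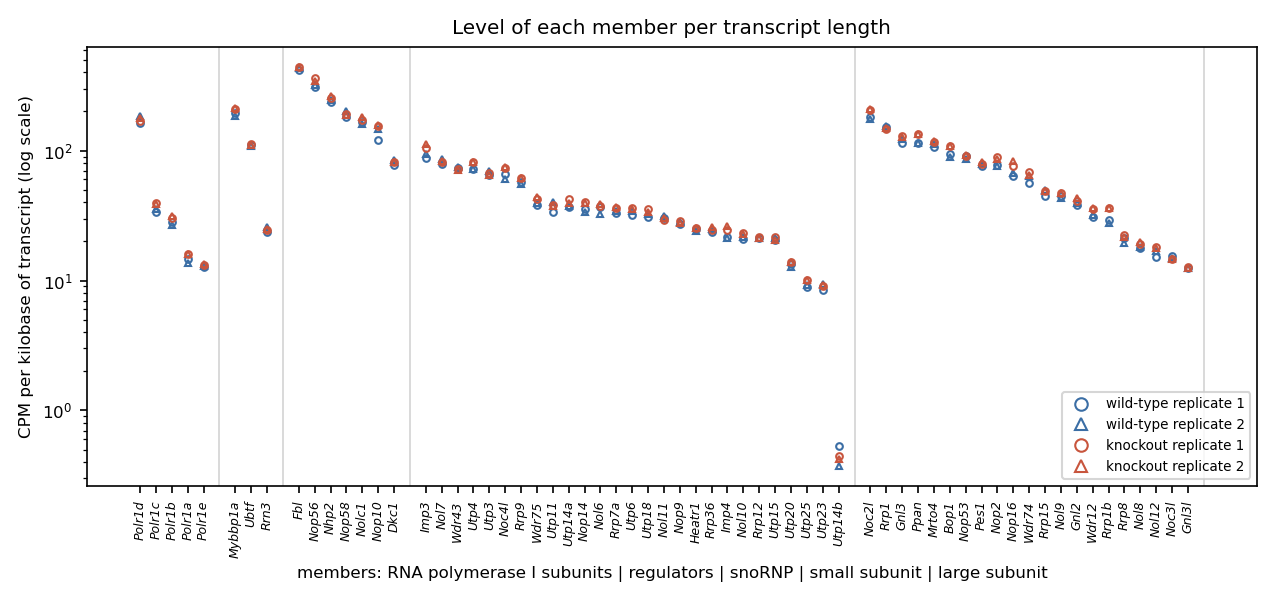
Level of the 63 members with an assigned role in CPM per kilobase of transcript (log axis), 1 point per library, ordered within each role group. Circles and triangles are replicates 1 and 2, blue is wild type and red is knockout. Fbl is highest at 418 to 441, and Utp14b lies apart at the bottom with 0.373 to 0.535. The transcript length used for Imp4 is nearly that of its whole gene, so its place in the order is uncertain.

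The small subunit processome assembles on the growing precursor RNA around the U3 snoRNA. Of its 27 members, 6 were called higher (22.2%, against 10.9% of all genes tested) and 21 were not called. The median log2 fold change of the 27 was 0.11. Imp3 and Imp4, partners in the U3 particle, rose together. Imp3 went from 81.0 and 86.3 CPM to 96.4 and 103 CPM (0.25, SE 0.06, adjusted p = 0.00621), and Imp4 from 126 and 124 to 142 and 154 CPM (0.24, SE 0.06, adjusted p = 0.00596). Their read ratio, Imp4 to Imp3, was 1.56 and 1.43 in wild type and 1.47 and 1.49 in knockout and so overlapped. Neither gene was called with no filter on low counts. Both kept their call without knockout replicate 1 and lost it without knockout replicate 2 (adjusted p = 0.209 for Imp3 and 0.233 for Imp4).

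Noc4l and Nop14 encode proteins that act as a pair in yeast small subunit assembly. Noc4l rose from 137 and 125 to 152 and 156 CPM (0.24, SE 0.06, adjusted p = 0.00797). Nop14 rose from 96.3 and 91.2 to 109 and 106 CPM (0.20, SE 0.06, adjusted p = 0.0164). Utp4 and Wdr75 belong to the subcomplex that binds the start of the precursor first. Utp4 went from 161 and 160 to 181 and 181 CPM, with almost no gap within either pair (0.17, SE 0.05, adjusted p = 0.0222). Wdr75 went from 113 and 117 to 126 and 130 CPM (0.16, SE 0.05, adjusted p = 0.0439), the call closest to the threshold. Each of these 4 calls was lost without either knockout library (highest adjusted p from 0.199 for Nop14 to 0.382 for Wdr75), and each was lost with no filter. With DESeq2 Nop14, Utp4 and Wdr75 were not called, and with upper-quartile normalization Utp4 and Wdr75 were not. Wdr75 was called in 6 of 13 alternatives, lost also with library totals only and with the 10 CPM filter.

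Wdr43 and Heatr1 encode further subunits of the subcomplex of Utp4 and Wdr75, and neither was called. Wdr43, the most abundant small subunit member by reads, was at 255 and 260 CPM in wild type and 249 and 243 CPM in knockout (-0.07, 95% interval -0.18 to 0.04, adjusted p = 0.380). Both of its knockout libraries were below wild type, without a call. Heatr1, a very large scaffold protein, was at 168 and 164 against 172 and 172 CPM (0.05, SE 0.05). Whether these genes differ from Utp4 in their change was not tested. Utp14a, a cofactor of an RNA helicase, lay just outside the threshold at 91.8 and 93.4 against 106 and 99.7 CPM (0.15, SE 0.06, adjusted p = 0.0617), and it was called without wild-type replicate 2 (0.0441) and with the GC trend removed (0.0305). Its relative Utp14b was at 2.07 to 2.96 CPM, and how reads were assigned between these related genes is not known. Nol6, Rrp9, Utp25, Rrp7a, Utp6, Utp18, Nol10 and Utp20 had log2 fold changes of 0.10 to 0.14 with separated libraries and no call. Nop9, Rrp12, Rrp36, Utp3, Utp11, Utp15, Utp23, Nol7 and Nol11 lay between -0.05 and 0.04.

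In large subunit assembly, 7 of 21 members were called higher (33.3%, against 10.9% of all genes tested). The other 14 were not called, and the median of the 21 was 0.12. Rrp1b, a nucleolar protein of pre-60S particles, rose most among the called members, from 142 and 136 to 177 and 175 CPM, or by 26.7% (0.34, SE 0.05, adjusted p = 0.000255). Over the alternatives its adjusted p ran from 1.18e-06 to 0.0427. Its relative Rrp1 went the other way without a call, from 302 and 309 to 289 and 297 CPM (-0.06, 95% interval -0.17 to 0.05). The read ratio of Rrp1b to Rrp1 was 0.471 and 0.441 in wild type and 0.614 and 0.590 in knockout.

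Nop16, a late nucleolar assembly factor, rose from 111 and 118 to 133 and 147 CPM (0.29, SE 0.06, adjusted p = 0.00291). Ppan, the counterpart of a yeast factor for early pre-60S particles, rose from 191 CPM in both wild-type libraries to 226 and 223 CPM (0.24, SE 0.05, adjusted p = 0.00337). Noc2l, a nucleolar protein also described as an inhibitor of histone acetylation, rose from 505 and 485 to 567 and 585 CPM (0.22, SE 0.05, adjusted p = 0.00664), and 20.9% of its annotated exon bases overlap those of Samd11. Nop2, which methylates a cytosine of the large subunit RNA, rose from 202 and 197 to 233 and 224 CPM (0.20, SE 0.05, adjusted p = 0.0122). In each of these genes the groups did not overlap. With no filter on low counts, Ppan kept its call and Nop16, Noc2l and Nop2 lost theirs. Nop16 kept its call without knockout replicate 1, while Ppan (0.100), Noc2l (0.0953) and Nop2 (0.233) lost theirs in that fit, and all 4 lost it without knockout replicate 2 (adjusted p = 0.117 to 0.224).

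Bop1, Pes1 and Wdr12 form a single complex that is required to mature the large subunit RNAs. Bop1 rose from 235 and 224 to 269 and 269 CPM (0.23, SE 0.05, adjusted p = 0.00503). Wdr12 rose from 101 and 104 to 116 and 117 CPM (0.18, SE 0.05, adjusted p = 0.0217). Pes1 was not called, at 222 and 228 against 229 and 238 CPM (0.05, 95% interval -0.06 to 0.16). The Bop1 to Pes1 read ratio was 1.06 and 0.980 in wild type and 1.18 and 1.13 in knockout, higher in both knockout libraries. Per kilobase, Bop1 was at 89.8 to 108 CPM per kb, Pes1 at 76.3 to 81.7 and Wdr12 at 31.1 to 35.9, an order that held in every library. The calls of Bop1 and Wdr12 were lost without either knockout library (highest adjusted p = 0.158 and 0.255). That of Wdr12 was also lost with DESeq2, upper-quartile normalization and no filter, leaving 8 of 13 alternatives.

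The remaining large subunit factors were not called. Nol12, Wdr74, Gnl3, Nol8, Nol9, Gnl2, Rrp8 and Mrto4 had log2 fold changes of 0.09 to 0.16 with both knockout libraries above wild type and no call. Gnl3 encodes nucleostemin, a GTPase abundant in cycling progenitors, and was at 221 and 240 against 251 and 248 CPM. Nop53, Rrp15 and Gnl3l were at 0.01 to 0.06, and Noc3l, the partner of Noc2l in yeast, was at -0.05.

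Factors of the same pathway outside the symbol pattern were counted in the same fit. The 4 lists held 97 tested genes (other RNA polymerase I, small subunit, large subunit and snoRNP assembly genes). Of these, 10 were called higher and 2 lower, or 10.3% and 2.06%, with a median of 0.05. Over all genes tested the shares were 10.9% and 12.6%, so the share called higher was near that of all genes. Their summed levels overlapped, at 15330.2 and 16205.5 CPM in wild type and 15665.5 and 16073.7 CPM in knockout. Among the polymerase I genes, Tcof1, the treacle gene of ribosomal DNA transcription, rose from 450 and 404 to 509 and 512 CPM (0.26, SE 0.06, adjusted p = 0.00469). Polr2f, which encodes a subunit common to the nuclear polymerases, rose by 0.20 (SE 0.06), whereas Taf1b, part of the selectivity factor that recruits RNA polymerase I, fell from 41.6 and 42.9 to 31.4 and 34.2 CPM (-0.37, SE 0.07, adjusted p = 0.00177). In all, 2 of 16 genes of this list were called higher and 1 lower.

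Of 32 other small subunit factors, 2 were called higher and none lower: Nob1, the nuclease that makes the final cut of 18S rRNA (0.19, SE 0.05), and Nat10, an RNA acetyltransferase (0.17, SE 0.05). Among 37 other large subunit factors 6 were called higher and 1 lower, with Rpf2 (0.23, SE 0.06) and Ddx56 (0.20, SE 0.06) up and the helicase gene Ddx24 down (-0.17, SE 0.05). None of 12 snoRNP assembly genes was called. The most abundant of them was Ruvbl2, a chaperone ATPase, at 205 and 207 against 221 and 221 CPM (0.10, adjusted p = 0.177).

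Of 14 tested genes of the RNA exosome, which trims precursor ends, 3 were called higher (21.4%) and none lower, with a median of 0.11. Over all genes tested, 10.9% were called higher and 12.6% lower. The called exosome genes were Exosc5 (0.23, SE 0.05), Exosc10 (0.20, SE 0.05) and Exosc6 (0.21, SE 0.06). Of 19 RNA polymerase III genes, Polr3g was called higher (0.30, SE 0.08) and Gtf3c3 lower (-0.25, SE 0.08), or 5.26% each way. Of 82 tested ribosomal protein genes 4 were called higher (4.88%) and 2 lower (2.44%), both below the shares of all genes. Their median was 0.07, and Rpl35 (0.25, SE 0.05), Rpl29 (0.20, SE 0.05) and Rps6 (-0.39, SE 0.07) were among those called. These values are uncertain, because processed pseudogenes close in sequence to ribosomal protein genes can take part of their reads. Each of the 16 calls named in these lists was lost in at least 1 fit without a knockout library, Taf1b without knockout replicate 1 (adjusted p = 0.0640), Rps6 (0.0569) and Rpl35 (0.187) without knockout replicate 2 and the others without either. The calls of Rpf2 (0.0507 without wild-type replicate 1) and Gtf3c3 (0.118 without wild-type replicate 2) were also lost without a wild-type library. With the GC trend removed, Polr2f (0.159), Exosc6 (0.215), Rpl29 (0.0503) and Gtf3c3 (0.0517) were not called. The difference between the members and these lists was not tested.

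**Figure D4:**
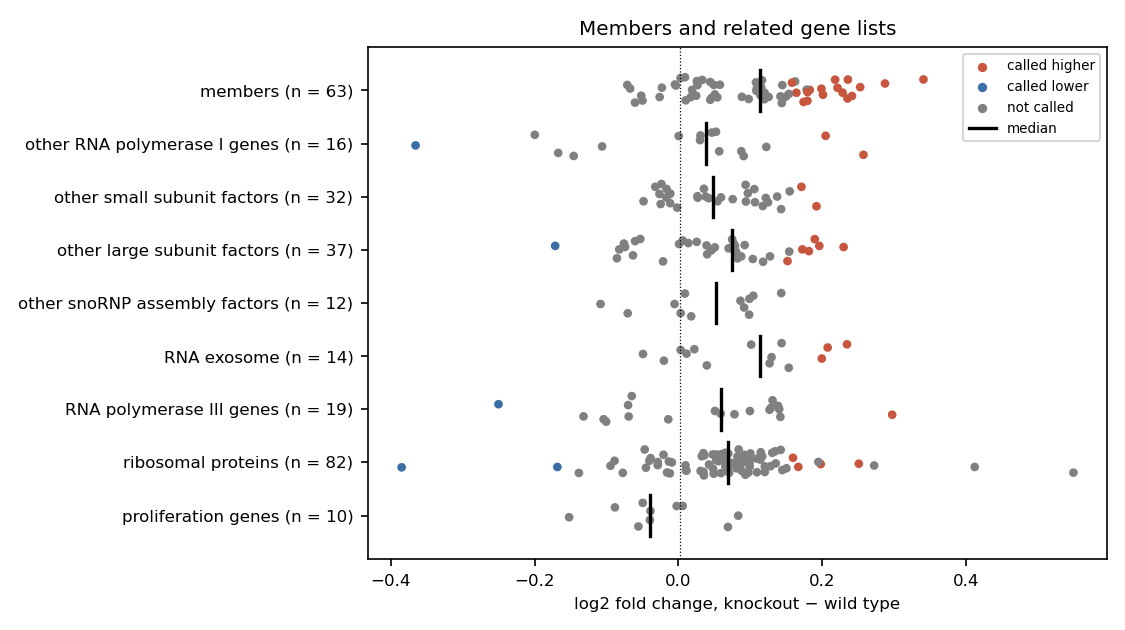
Log2 fold change of every tested gene in the members with an assigned role and in 8 related lists, 1 point per gene with vertical scatter for legibility. Red marks genes called higher, blue called lower, grey not called. Black bars are medians and the dotted line is the median of all genes tested (0.0021). The median is 0.11 for the members and for the RNA exosome, 0.07 for ribosomal proteins and -0.04 for proliferation genes.

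A few MYC and p53 pathway genes were read beside the members. Mycn, the leukaemia's driver, was at 1013 and 857 CPM in wild type and 944 and 921 CPM in knockout (-0.0033, adjusted p = 0.978), and these counts do not separate introduced from endogenous RNA. Its wild-type libraries lay on both sides of the knockout ones: leaving out replicate 1 gave a call of higher (0.12, adjusted p = 0.0314), and leaving out replicate 2 a call of lower (-0.12, adjusted p = 0.0358). Myc was at 86.7 and 79.3 against 35.2 and 33.6 CPM (-1.27, SE 0.07, adjusted p = 8.90e-09). Trp53, the gene of p53, which is stabilised when ribosome assembly is disturbed, was at 368 and 356 against 394 and 404 CPM (0.14, SE 0.05, adjusted p = 0.0585) and was called higher without wild-type replicate 1 (0.17, adjusted p = 0.00550). Mdm2, its inhibitor and transcriptional target, fell from 102 and 95.4 to 87.0 and 78.6 CPM (-0.25, SE 0.06, adjusted p = 0.00954), and was not called with DESeq2 (0.0546), with no filter (0.113) or when knockout replicate 2 was left out (0.284). Cdkn1a, a p53 target and cell cycle inhibitor, fell from 48.1 and 51.1 to 17.5 and 19.9 CPM (-1.41, SE 0.08).

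The spread between libraries was uneven, among the members as over all genes. In 45 of the 64 tested members the wild-type pair lay farther apart than the knockout pair, with median gaps of 0.067 and 0.036 on the log2 scale. Over all genes, chi-square per degree of freedom was 5.56 within the wild-type pair and 2.14 within the knockout pair, against 19.56 to 20.99 between genotypes. Over the members, chi-square per gene was 6.05 within the wild-type pair and 1.78 within the knockout pair. The base composition of the transcripts moved with the values: the Spearman correlation between GC content and log2 fold change was 0.36 over the 64 members and 0.16 over 11841 tested genes with a transcript, a description over genes that share the same 4 libraries. GC content also ran with the difference between the wild-type libraries (Spearman correlation 0.21 over the tested genes) and had a correlation of -0.035 with that between the knockout libraries. The GC trend of each library was then removed, an alternative chosen after seeing the data. In that fit 22 members were called higher (34.4%, against 10.4% of all genes), among them all 17, and none lower.

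Some members carry features that bear on counting. Of the 65, 34 had whole numbers of reads in all 4 libraries, and so did 11 of the 17 called members. The others held decimals, whose origin was not tested. The strand setting is not given in the sources used here, and besides Noc2l, protein-coding exons of other genes overlap at least 10% of the exon bases of Nol3 (48.2%), Nop9 (29.9%), Nol7 (16.5%), Rrp7a (12.5%) and, just at that limit, Rrp8. Within the gene bodies of 7 members, GENCODE annotates snoRNA genes on the same strand: Nop56 with 5, Nop58 with 4, Gnl3 and Wdr43 with 3 each, Ppan with 2, and Dkc1 and Nop53 with 1 each. Of these hosts Nop56 and Ppan were called higher, Gnl3, Dkc1 and Nop53 had positive values without a call, and Nop58 and Wdr43 had negative values without a call. The sign of Dkc1 turned with library totals only, upper-quartile normalization and the 10 CPM filter, and that of Nop58 with the GC trend removed.

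**Figure D5:**
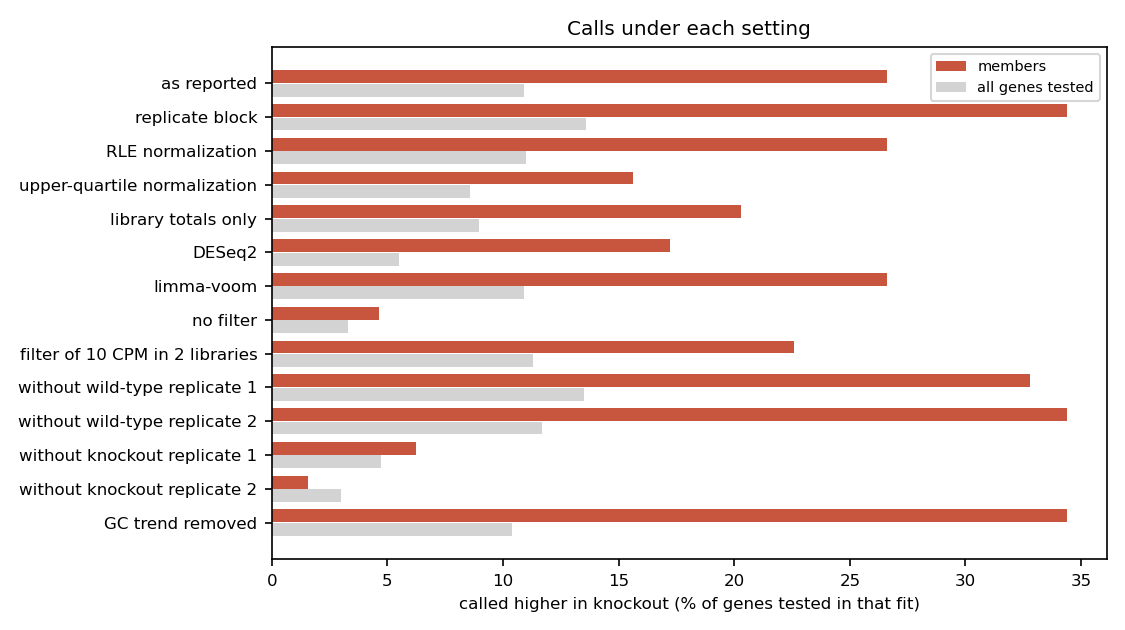
Share of tested members (red) and of all tested genes (grey) called higher in knockout under the reported setting and 13 alternatives, as a percentage of the genes tested in that fit. The members' bar is the longer one in every setting except the fit without knockout replicate 2, where 1.56% of members and 2.97% of all genes were called.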

How the data were processed

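RNA was extracted with Trizol, per the labels' protocols. The authors deposited 1 file per library holding an estimated count of reads for each gene symbol (an expected count, in part with decimals, not normalized). HISAT2 2.0.4, DESeq2 1.4.5 and GRCm38 are listed in the submitters' processing notes, without their roles. For the counting tool, annotation, strand setting and filters, the entry is "not given in the sources used here".

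Counts were rounded and tested with edgeR 4.0.16 (R 4.3.3): TMM normalization, filterByExpr (minimum count 10), the quasi-likelihood test without covariates, and Benjamini-Hochberg adjustment over all 12123 genes tested, called at an adjusted p under 0.05. CPM are scaled by the TMM factors. No exact permutation test was run on single genes. The fit was repeated with a replicate block, RLE, upper-quartile or no scaling, DESeq2 1.42.0, limma-voom (limma 3.58.1), no filter, at least 10 CPM in 2 libraries, and leaving out each library. A GC correction (loess, span 0.3) was added later. The members and lists were chosen with earlier results of these data known. Under the rule for named genes, values were given for called members, the most abundant of each role, the 2 members nearest the threshold on each side, up to 3 called genes per related list and 6 context genes; values of other members were added after they were seen, and Utp25 was then placed with the small subunit factors. Transcript length and GC content are from GENCODE M21 principal transcripts, promoters and coordinates from RefSeq (GRCm38.p6). The fit was also run on simulated counts, but its recovery of rises as small as those called is not given here.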

Additional observations from a re-analysis of the deposited data

How the results depend on the processing

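No member was called lower in any of the 13 alternatives. The number called higher was 10 with upper-quartile normalization, 11 with DESeq2 and 3 with no filter, and ran from 1 to 22 over the fits that leave out 1 library. With the replicate number as a block 22 were called (34.4%, against 13.6% of all genes), adding Mybbp1a, Polr1c, Nol6, Utp14a and Nol12. Same-numbered libraries did not deviate together (correlation 0.0349), so the numbers were not taken as pairs. Log2 fold changes near 0 changed sign, and the cause was not tested. With upper-quartile normalization these were Polr1d (-0.027), Dkc1 (-0.013), Gnl3l (-0.021), Rrp12 (-0.011), Ubtf (-0.0036), Utp11 (-0.0046), Utp15 (-0.020) and Utp23 (-0.0054). With library totals only they were Polr1d (-0.021), Dkc1 (-0.0065), Gnl3l (-0.015), Rrp12 (-0.0047) and Utp15 (-0.013), and with the 10 CPM filter Polr1d (-0.016), Dkc1 (-0.0019), Gnl3l (-0.0098) and Utp15 (-0.0087). With the GC trend removed, chosen after seeing the data, they were Polr1d (-0.026), Fbl (-0.0051), Rrp12 (-0.018), Ubtf (-0.0044), Nol7 (0.039), Nop58 (0.018) and Rrn3 (0.023). Nol7 (0.0010) and Rrn3 (0.0024) turned with DESeq2 and Rrn3 (0.00026) with no filter. Mycn turned with the block (0.0014), DESeq2 (0.0025), limma-voom (0.0016) and no filter (0.00032). Leaving out 1 library gave ranges of -0.039 to 0.072 (Dkc1), -0.12 to 0.12 (Mycn), -0.072 to 0.063 (Nol7), -0.099 to 0.048 (Nop58), -0.082 to 0.091 (Polr1d), -0.067 to 0.060 (Rrn3), -0.020 to 0.12 (Rrp15), -0.0027 to 0.090 (Rrp36), -0.096 to 0.16 (Utp11), -0.31 to 0.21 (Utp14b), -0.032 to 0.055 (Utp15), -0.053 to 0.10 (Utp23) and -0.069 to 0.021 (Utp3). Upper-quartile normalization moved the median of all genes to -0.028. Depth limits Nol3 and Nol4l, and 2 libraries per genotype limit the rest.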
